A study of Mus musculus with 12 samples.

Results

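The 26S proteasome is described here through the 50 genes, of 24062 in the expression tables of brain and spleen, whose symbols begin with Psma, Psmb, Psmc, Psmd, Psme, Psmf or Psmg followed by a digit. The choice rests on the symbol alone and used no measured value. By role they were 7 alpha, 4 structural beta and 3 constitutive catalytic beta subunits of the 20S core, 6 ATPases and 11 other subunits of the 19S cap, and the 3 inducible catalytic subunits of the immunoproteasome. The rest were the PA28 alpha and beta genes with Psme2b, a close copy of the second (3), 3 other activators or inhibitors, 4 assembly chaperones of the core and 3 of the cap, and 2 core subunits used in testis or thymus (Psma8 and Psmb11). Psmc3ip shares the name but encodes a meiotic recombination factor, so it is no proteasome gene and its values are given only for completeness.

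RNA was sequenced from brain and spleen of male C57BL/6 mice (C57BL/6J in the study's methods) aged 10 weeks that carried Norad, a conserved long noncoding RNA, on both chromosomes (Norad+/+) or on neither (Norad-/-), with 3 libraries per tissue and genotype, 12 in all. The study deleted Norad by genome editing in all cells of the animal, so no Cre driver or transgene limits the model, and no other allele or agent was shared by the groups. The methods name 3 mice per genotype for both tissues, so both organs may have been taken from each animal. Which library of a tissue goes with which of the other, and which knockout line was sequenced, is not given in the sources used here, and fits across tissues took the libraries as independent. Norad binds PUMILIO proteins, and the comparison asks which transcripts differ when it is absent. Values are FPKM, read coverage per length of transcript scaled to the reads of the library, so that levels of different genes can be set side by side.

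The proteasome degrades proteins tagged with ubiquitin. Its barrel-shaped 20S core stacks rings of alpha and beta subunits, of which beta1 (Psmb6), beta2 (Psmb7) and beta5 (Psmb5) cut the substrate, and its 19S cap recognises, unfolds and feeds that substrate with a ring of ATPases. In lymphocytes and other cells exposed to interferon-gamma, Psmb9, Psmb10 and Psmb8 take the places of those catalytic subunits, and the PA28 cap of Psme1 and Psme2 joins the core, which changes the peptides offered to T cells on class I molecules. Neurons express the inducible subunits little.

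For the question of the study, these genes were searched for PUMILIO response elements, the 8-base words TGTANATA that PUMILIO proteins bind in 3' UTRs. They were searched on the transcript strand of the longest 3' UTR of each gene in GENCODE M21 (GRCm38). Of the 50 genes, 6 held at least 1 (12%, Wilson 95% interval 5.62% to 23.8%), against 24.0% of 19279 genes with a 3' UTR in the tables and 27.1% of 13492 whose mean reached 1 FPKM in either tissue. The 3' UTRs of these genes were short, with a median of 295 bases against 1002 and 1210 in those sets. With the last base left free (TGTANATN) 9 genes (18.0%) held a word, against 48.5% of the expressed genes. The 9 strict words lay in the alpha subunits Psma3 and Psma5, the thymic beta subunit Psmb11, the cap chaperone Psmd5, the inhibitor Psmf1 and the core chaperone Psmg4. These are matches of letters only. The study measured binding of the PUMILIO protein PUM2 in brain by crosslinking and immunoprecipitation, and those data were not used here. Each word is printed in the sense of the transcript, in capitals, because they are all the full words found in these genes.
Psma3, chr12:70994796-70994803 (+), base 401 of the 3' UTR: atacaaataTGTATATAtacagacac
Psma3, chr12:70994818-70994825 (+), base 423 of the 3' UTR: acacacatgTGTATATAcatttaaat
Psma5, chr3:108279934-108279941 (+), base 122 of the 3' UTR: tatgaagtcTGTACATAacagcaatt
Psmb11, chr14:54628886-54628893 (+), base 2651 of the 3' UTR: gatacactgTGTAAATAcatgaacca
Psmd5, chr2:34852163-34852170 (-), base 406 of the 3' UTR: tatattattTGTATATAaggaataat
Psmd5, chr2:34851157-34851164 (-), base 1412 of the 3' UTR: aaagatttaTGTAAATAtatgagtac
Psmd5, chr2:34850198-34850205 (-), base 2371 of the 3' UTR: tttggttatTGTACATAgcctaattg
Psmf1, chr2:151717124-151717131 (-), base 1503 of the 3' UTR: gtttgggaaTGTAGATAacttggacc
Psmg4, chr13:34178128-34178135 (+), base 73 of the 3' UTR: tttgtaacgTGTATATAaatgacatt

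The libraries held an estimated 28.4 to 36.7 M reads in brain and 31.6 to 35.3 M in spleen. Norad was at 206 to 635 FPKM in Norad+/+ brain and 42.9 to 62.0 in Norad+/+ spleen, and at most 0.0173 FPKM in any Norad-/- library, as the labels say. Neuronal markers summed to 1606 to 2165 FPKM in brain and at most 17.6 in spleen, and B cell markers to 1129 to 1480 FPKM in spleen and at most 3.21 in brain. Replicate 3 of Norad+/+ stood apart in both tissues, with a median Spearman correlation to its tissue of 0.949 in brain (others 0.973 to 0.979) and 0.948 in spleen (others 0.961 to 0.971). The spleen library also carried pancreatic (230 FPKM summed over 4 genes, at most 9.41 in the other spleens) and liver markers (103 FPKM, at most 0.531 in the others). Replicate 3 of Norad-/- brain carried pituitary markers (1314 FPKM over 3 genes, at most 1.03 in the other brains). Counts and several of the gene values below are also given without them. In such bulk tissue, fewer cells of a type and less RNA per cell cannot be told apart.

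In Norad+/+ brain the 31 constitutive core and cap subunits ranged from 4.51 FPKM (Psmb3) to 88.6 FPKM (Psmc5), with a median of 41.7. In Norad+/+ spleen they ranged from 4.32 (Psma3) to 107 FPKM (Psmb2), with a median of 51.8. Most members of a ring lay within a few fold of each other, and a few stood far below although each ring holds 1 copy of each. Psma3 and Psma5 were at 6.27 ± 0.349 and 4.54 ± 1.29 FPKM in Norad+/+ brain (SD, n = 3), while the other 5 alpha subunits were at 37.6 to 65.4. Psmb3 and Psmb5 were similarly low, at 4.51 ± 0.556 and 6.91 ± 1.19 FPKM, beside 27.1 to 57.0 for the other 5 constitutive beta subunits. These genes share words with pseudogenes, and the authors kept only uniquely mapped reads. Psma2, Psma4, Psmc1, Psmd2 and Psmd11, which were not low in this way, share words with pseudogenes too. Of all 75-base words (the read length used) in transcripts of the low genes, 20.9% (Psma3), 39.8% (Psma5), 33.1% (Psmb3) and 32.9% (Psmb5) also occurred in transcripts of another gene. For the other 27 subunits that share was at most 14.4%, and its part in the low levels was not tested. Psme2 (46.9%) and its copy Psme2b (60.2%) share words with each other, so their separate values are uncertain.

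Chaperones and most regulators were at lower levels. Median levels in Norad+/+ were 6.42 FPKM in brain and 13.0 in spleen for the core chaperones, and 10.7 and 19.1 for the cap chaperones. Psme3, the nuclear PA28 gamma cap, was at 54.2 ± 8.05 FPKM in brain and 108 ± 25.2 in spleen. Psme4, the PA200 activator, was at 9.66 ± 0.805 and 15.8 ± 0.770. Psma8 stayed at or below 0.310 FPKM in every brain library and at 0.633 to 1.26 in spleen, and Psmb11 at or below 0.0496 FPKM in all 12 libraries.

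The tissues were compared first, in Norad+/+, because the immunoproteasome is known from lymphoid tissue. A fit of log2(FPKM + 0.1) with limma compared 3 spleen with 3 brain libraries over 14216 genes, of which 48 were members (all but Psma8 and Psmb11, which lay under the mean of 1 FPKM required), with p adjusted over all genes and a threshold of 0.05. Of the 48, 26 were higher in spleen and 2 in brain, and over all genes 43.6% were higher in spleen and 35.4% in brain. The count higher in brain was 5 when libraries were rescaled to a common total and 12 when the Norad-/- libraries were compared instead. The shares of all genes at those settings are not given, so these counts show only that the members' count depends on the setting. Groups did not overlap for 28 members higher in spleen and 2 higher in brain, against 45.4% and 36.9% of all genes. The median difference was 0.64 on the log2 scale for the members and 0.24 for all genes tested. The FPKM of each library were scaled to its own reads, and the tissues stand in separate tables, so these differences are relative to each library's total. After the rescaling the medians were 0.44 for the members and 0.04 for all genes.

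The inducible subunits and the PA28 cap differed most. Psmb8 (beta5i) was at 0.945, 1.25 and 1.30 FPKM in the Norad+/+ brains and at 102, 87.9 and 91.6 in the Norad+/+ spleens. Psmb9 (beta1i) was at 0.424, 0.781 and 0.261 FPKM in those brains and at 77.1, 63.1 and 67.7 in the spleens. Psmb10 (beta2i) was at 8.04, 9.07 and 8.72 in brain and 42.3, 41.5 and 43.3 in spleen. For all 3 genes each spleen was far above each brain, and the brains held Psmb10 at a level several times that of the other 2. The differences were 6.22 ± 0.15 for Psmb8 (log2 ± SE, limma adjusted p = 6.02e-07), 6.97 ± 0.32 for Psmb9 (adjusted p = 2.24e-06) and 2.29 ± 0.11 for Psmb10 (adjusted p = 2.31e-06). Psmb9 averaged 0.489 FPKM in these brains, so it reached the required mean of 1 FPKM only through spleen. The size of its difference depends on the 0.1 FPKM added to each value. Psme1 (PA28 alpha) was at 14.2, 14.4 and 28.2 FPKM in brain and 155, 135 and 142 in spleen, a difference of 2.99 ± 0.28 (adjusted p = 6.07e-05). Psme2 (PA28 beta) was at 2.55 to 2.80 FPKM in brain and 21.7 to 25.4 in spleen, a difference of 3.08 ± 0.12 (adjusted p = 1.30e-06). Psme2b differed by 4.56 ± 0.44 (adjusted p = 7.39e-05), with the limit on its reads given above.

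**Figure D1:**
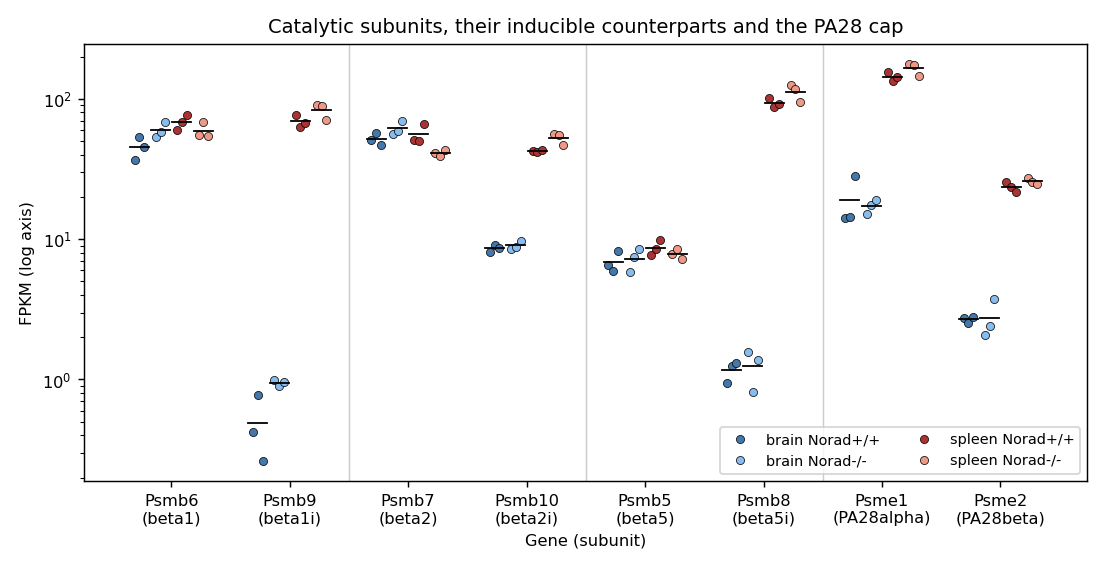
FPKM on a log axis of the 3 constitutive catalytic genes, each beside its inducible counterpart, and of the 2 PA28 genes, with 1 point per library (n = 3 per group) and a bar at the mean. The spleen points of Psmb9, Psmb8, Psme1 and Psme2 lie far above the brain points, while those of Psmb6, Psmb7 and Psmb5 lie much closer to theirs.

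In Norad+/+ the constitutive catalytic subunits differed less between the tissues than the inducible ones. Psmb6 (beta1) was at 36.9, 53.4 and 45.7 FPKM in brain and 60.3, 67.8 and 77.2 in spleen, which passed at 0.60 ± 0.18 (adjusted p = 0.0181). It missed the threshold under several alternatives, among them without replicate 3 of Norad+/+ spleen (0.51, adjusted p = 0.0582). Psmb7 (beta2) differed by 0.11 ± 0.16 (adjusted p = 0.550), or -0.09 after that rescaling, and Psmb5 (beta5) by 0.33 ± 0.17 (adjusted p = 0.113). Without replicate 3 of Norad+/+ brain the difference of Psmb5 was 0.46 and passed (adjusted p = 0.0257), and without that replicate of spleen Psmb7 was at -0.02 (adjusted p = 0.900). Between the Norad-/- libraries of the tissues Psmb6 was at -0.015, and Psmb7 was higher in brain at -0.58 (limma adjusted p = 0.00115).

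Within each library the ratio of an inducible to its constitutive counterpart was formed, for description only. In Norad+/+ spleen Psmb8 stood at 11.0 ± 2.06 times Psmb5, Psmb9 at 1.03 ± 0.217 times Psmb6 and Psmb10 at 0.770 ± 0.101 times Psmb7 (SD, n = 3). In Norad+/+ brain the same ratios were 0.171 ± 0.0338, 0.0106 ± 0.00453 and 0.168 ± 0.0161. The large value for Psmb8 divides by Psmb5, whose low level and shared words are described above. Together the 3 inducible genes made up 65.0%, 60.4% and 56.9% of the FPKM of all 6 catalytic genes in the Norad+/+ spleens, and 9.09%, 8.71% and 9.27% in the Norad+/+ brains.

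Among the constitutive core, 5 of 7 alpha and 4 of 4 structural beta subunits were higher in spleen, and 1 alpha subunit was lower. Over all genes tested, 43.6% were higher in spleen and 35.4% higher in brain, so counts in classes this small say little by themselves. Psma1 (alpha6) was at 33.7 to 45.1 FPKM in brain and 70.0 to 99.3 in spleen (1.16 ± 0.19, adjusted p = 0.00106), and Psmb3 (beta3) differed by 1.39 ± 0.18 (adjusted p = 0.000347). Psma3 (alpha7) went the other way, at 6.6, 6.32 and 5.91 FPKM in brain and 4.89, 3.74 and 4.34 in spleen (-0.53 ± 0.14, adjusted p = 0.0113). In the cap the counts were smaller. None of its 6 ATPases was higher in spleen, and Psmc5 (Rpt6) was lower, at 79.6, 86.3 and 99.7 FPKM in brain and 48.3, 50.5 and 63.0 in spleen (-0.72 ± 0.16, adjusted p = 0.00521). Of the 11 other cap subunits 3 were higher in spleen: Psmd4 (0.73 ± 0.17), the ubiquitin receptor Rpn10, Psmd11 (0.85 ± 0.16) and Psmd13 (0.63 ± 0.20). The medians were 0.77 for the alpha subunits, 0.84 for the structural beta subunits, 0.08 for the ATPases and 0.06 for the other cap subunits. Whether core and cap differ in this was not tested.

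The chaperones that build the core were higher in spleen in 3 of 4 cases, against 43.6% of all genes. Psmg4 (PAC4) was at 1.70 to 2.48 FPKM in brain and 8.95 to 10.7 in spleen (2.21 ± 0.17, adjusted p = 2.32e-05), and Psmg2 and Psmg3 also passed. Of the cap chaperones Psmd10 (gankyrin) passed (0.82 ± 0.16, adjusted p = 0.00313), and of the other regulators Psme3 (0.98 ± 0.22, adjusted p = 0.00492) and Psme4 (0.70 ± 0.12, adjusted p = 0.00116) did, while the inhibitor Psmf1 did not (1.003 ± 0.40, adjusted p = 0.0551). Psmc3ip was higher as well (1.92 ± 0.32, adjusted p = 0.00125).

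**Figure D2:**
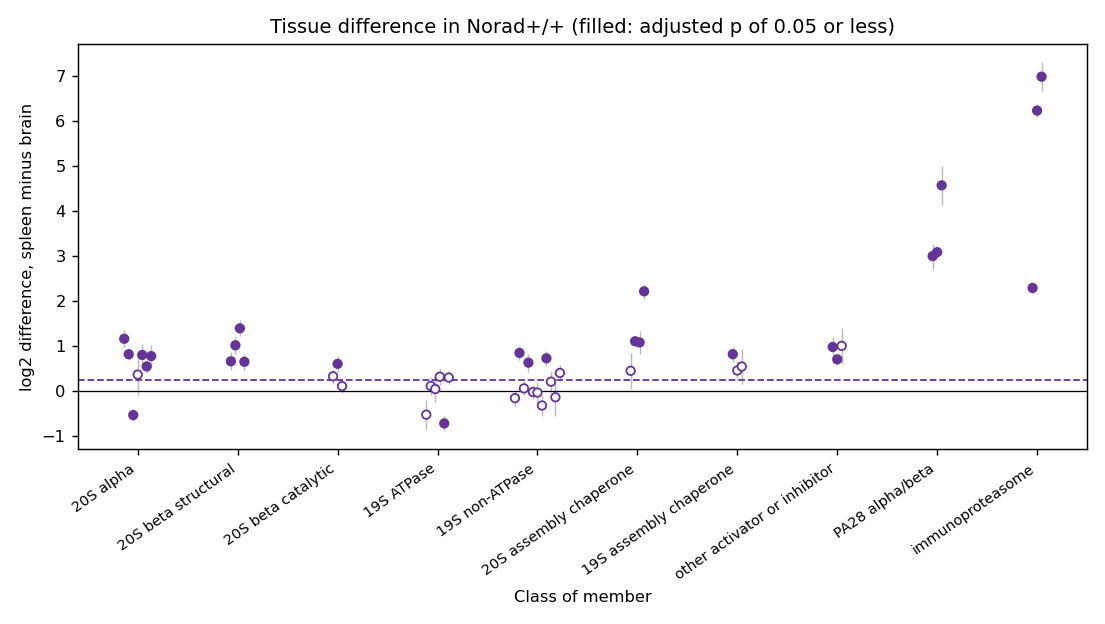
Difference of log2(FPKM + 0.1) between Norad+/+ spleen and brain for the 47 proteasome genes tested, Psmc3ip left out, by class, with standard errors as bars and filled points where the adjusted p is 0.05 or less. The dashed line is the median of all genes tested, 0.24, and the immunoproteasome and PA28 genes lie between 2.29 and 6.97.

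Psmb9 and Psmb8 lie within the major histocompatibility locus on chromosome 17 (GRCm38), interleaved with the peptide transporter genes. Psmb9 spans chr17:34181987-34187764 on the minus strand and overlaps the start of Tap1 (chr17:34187553-34197225), Psmb8 (chr17:34197721-34201454) starts 495 bases beyond Tap1, and Tap2 (chr17:34203527-34216321) follows after 2072 bases. The kit marks strand, but whether counting used it is not given in the sources used here, so reads in the overlap could be counted for either gene. All 8 class I processing genes on a list of related genes were higher in spleen, against 43.6% of all genes. That list was set with earlier results of these data known. Tap1 was at 6.36 ± 0.14, Nlrc5 at 6.67 ± 0.19, Irf1 at 5.74 ± 0.13 and Tap2 at 4.17 ± 0.15. Tap1 and Nlrc5 averaged 0.558 and 0.126 FPKM in Norad+/+ brain, so they too entered the fit only through spleen.

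Promoters were searched for letters bound by interferon-activated factors, since the inducible genes are set apart by tissue. Of the members, 42 matched a RefSeq promoter (GRCm38.p6, 250 bases before to 50 after the start, both strands). An interferon-stimulated pair of half-sites, GAAANNGAAA, stood in 5 of 42 (Psmd4, Psmd9, Psmb3, Psmg4 and Psme1) and in 3.99% of all 27025 genes. The STAT word TTCNNNGAA stood in 3 of 42 (Psmd2, Psmg1 and Psmb8) and in 9.55% of all genes. Neither word was found for the inducible Psmb9 and Psmb10 or for Psme2, and whether Psmb10 was among the 42 is not given here. Apart from Psme1 and Psmb8, the matches lay in constitutive subunits and chaperones. The 2 matches in genes of the inducible set are printed with the word in capitals, the first in its reverse orientation. The Psme1 word starts 9 bases after the RefSeq start used and the Psmb8 word 97 bases before it. Both words lie within the GENCODE span of their gene. All promoter matches are of letters only, and binding was not measured.
Psme1, chr14:55578493-55578522 (+): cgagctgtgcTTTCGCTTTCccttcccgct
Psmb8, chr17:34198088-34198116 (+): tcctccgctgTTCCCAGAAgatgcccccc

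The genotypes were then compared within spleen. In a limma fit of 3 Norad-/- against 3 Norad+/+ spleens over 12397 genes, 0 of the 48 members tested were higher and 0 lower at an adjusted p of 0.05, and over all genes 0.00807% were higher and 0.0242% lower. At an unadjusted p under 0.05, 1 member was higher (Psmb10) and 9 were lower, as were 920 and 1680 of the 12397 genes, which in both directions together is about the share of the members. The groups did not overlap for 13 members that were lower in Norad-/- (27.1%, against 14.9% of all genes) and 2 that were higher (4.17%, against 11.6%). Of the 31 constitutive subunits, 29 had a negative difference, as did 6669 of the 12397 genes. The median of the 31 was -0.20, against -0.02 over all genes tested. The spread between libraries of the same group was of that order: the median of the 31 subunits varied by 0.15 (SD) between libraries. When FPKM were rescaled to a common total, the median of all genes went from -0.02 to 0.10 and that of the 31 subunits to -0.08, with 24 of 31 below 0. That rescaling shifts all genes of a library alike, so it cannot change the distance between the medians. The share of all genes below 0 after it is not given.

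Relative to the mean of all 6 spleens, the 31 subunits had median deviations of -0.08, 0.08 and 0.35 (log2) in the Norad+/+ libraries and -0.13, -0.09 and -0.12 in the Norad-/- libraries. Replicate 3 of Norad+/+, which stood apart by other measures as well, was highest for nearly all subunits, with 30 of 31 above their mean, while replicate 1 of Norad+/+ lay close to the Norad-/- libraries. Without replicate 3 of Norad+/+ the median was -0.08, with 24 of 31 below 0, and the median of all genes was 0.003. The share of all genes below 0 in that fit is not given. In it, 13 members were still lower without overlap (27.1%, against 16.8% of all genes). Summed markers of other cells also differed on average between the genotypes. The 5 dividing cell markers summed to 97.3, 188 and 262 FPKM in the Norad+/+ spleens and 40.4, 37.2 and 107 in the Norad-/- spleens. The red cell precursor markers (5 of 6 in the tables, each above 0.1 FPKM in some library of each group) summed to 554, 1362 and 1752 and to 63.6, 52.0 and 704. The 4 neutrophil markers summed to 796, 2293 and 1765 and to 262, 149 and 1416. The 5 microglia and macrophage markers were lower in Norad-/- spleen as well (166.8 to 171 FPKM summed in Norad+/+, 128 to 138 in Norad-/-) and the 4 plasma cell markers higher (388 to 592 and 652 to 774), both without overlap. Replicate 3 of Norad-/- had the highest dividing cell, red cell precursor and neutrophil sums of its group. Its subunit median of -0.12 lay between those of the others (-0.13 and -0.09). The part of these cells in the subunits' levels was not tested.

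**Figure D3:**
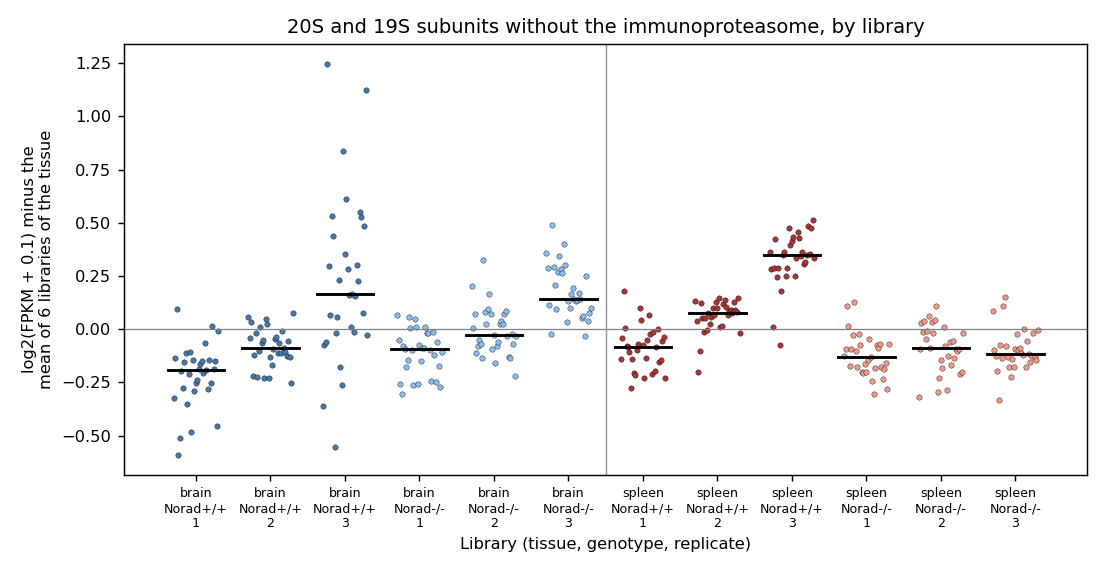
Each point is 1 of the 31 constitutive core and cap subunits in 1 library, as log2(FPKM + 0.1) minus its mean over the 6 libraries of the tissue, with a bar at the median. Replicate 3 of Norad+/+ has the highest median in spleen (0.35), and in brain replicate 3 of both genotypes is high (0.16 and 0.14).

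Among the members with the smallest p in spleen, the inhibitor Psmf1 (PI31) was at 12.8, 15.2 and 18.3 FPKM in Norad+/+ and 7.83, 8.19 and 11.4 in Norad-/-. All 3 Norad-/- spleens lay below all Norad+/+ spleens, and the difference was -0.76 ± 0.19 (limma adjusted p = 0.166). The 19S ATPase Psmc1 (Rpt2) was at 35.5, 37.7 and 45.4 FPKM against 30.8, 29.4 and 30.4 (-0.38 ± 0.11, adjusted p = 0.18). Psmc6 (Rpt4), another ATPase, was at 63.0, 65.3 and 82.9 against 50.9, 49.4 and 55.8 (-0.43 ± 0.12, adjusted p = 0.183). The catalytic Psmb7 was at 51.0, 50.03 and 66.3 FPKM in Norad+/+ and 41.4, 38.8 and 43.2 in Norad-/- (-0.43 ± 0.13, adjusted p = 0.185). Psmd7 (Rpn8), the partner of the cap's own deubiquitinase, was at 48.7, 55.2 and 71.2 against 41.0, 43.4 and 45.0 (-0.42 ± 0.15, adjusted p = 0.201), or -0.27 without replicate 3 of Norad+/+. In each of these 5 genes the groups did not overlap and replicate 3 of Norad+/+ was the highest library. Among the members in the main fit, the others without overlap on the low side were Psma2, Psmc2, Psmc5, Psmd1, Psmd2, Psmd6, Psmd12 and Psme4, at -0.17 to -0.36. Psmb1 (beta6) was the only constitutive subunit higher without overlap, at 78.3, 98.4 and 90.2 FPKM in Norad+/+ and 104, 99.0 and 102 in Norad-/- (0.20 ± 0.10, adjusted p = 0.306). The gap between the groups was narrow, and without replicate 1 of Norad+/+ the difference was 0.11.

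The other 2 constitutive catalytic subunits overlapped between genotypes in spleen, with Psmb6 at -0.21 ± 0.13 (adjusted p = 0.405) and Psmb5 at -0.14 ± 0.12 (adjusted p = 0.527). Without replicate 3 of Norad+/+ they were at -0.12 and -0.048. The lowest estimates among all members were those of Psmc3ip (-0.84 ± 0.29, adjusted p = 0.198) and the cap chaperone Psmd9 (-0.78 ± 0.32, adjusted p = 0.240), whose Norad+/+ values of 6.6, 15.7 and 12.7 FPKM overlapped the Norad-/- range of 5.73 to 7.69. Psme3 was at 80.7, 114 and 130 FPKM against 66.3, 70.8 and 93.2 (-0.48 ± 0.21, adjusted p = 0.258), and Psme2b at -0.44 ± 0.27 (adjusted p = 0.379).

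The inducible subunits and the PA28 pair had differences of the opposite sign in spleen. Psmb10 was at 42.3, 41.5 and 43.3 FPKM in Norad+/+ and 55.7, 54.9 and 47.1 in Norad-/-, without overlap (0.31 ± 0.09, limma adjusted p = 0.182). Psmb8 was at 102, 87.9 and 91.6 against 125, 118 and 94.4 FPKM, and Psmb9 at 77.1, 63.1 and 67.7 against 89.8, 88.7 and 70.4. For both genes replicate 3 of Norad-/- fell within the Norad+/+ range (0.25 ± 0.13, adjusted p = 0.301 for Psmb8 and 0.26 ± 0.13, adjusted p = 0.305 for Psmb9). Psme1 was at 155, 135 and 142 FPKM against 177, 175 and 145 (0.20 ± 0.11, adjusted p = 0.327), and Psme2 at 25.4, 23.5 and 21.7 against 27.2, 25.7 and 24.8 (0.14 ± 0.09, adjusted p = 0.397), or 0.084 without replicate 3 of Norad+/+. None of the 5 passed. Replicate 3 was the lowest of the Norad-/- spleens for each of these 5 genes, and it also had the most red cell precursor and neutrophil markers of the 3. Any link between those markers and the levels of the 5 genes was not tested.

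The inducible genes were also set against their constitutive counterparts within each library. The inducible genes made up 72.1%, 69.3% and 66.9% of the catalytic FPKM in the Norad-/- spleens, each above the highest Norad+/+ spleen (65.0%). The ratio of Psmb10 to Psmb7 was 1.28 ± 0.171 in Norad-/- and 0.770 ± 0.101 in Norad+/+ (SD, n = 3), with ranges of 1.09 to 1.41 and 0.653 to 0.829. Psmb9 to Psmb6 was 1.41 ± 0.192 against 1.03 ± 0.217, with no overlap (lowest 1.30, highest Norad+/+ value 1.28). Psmb8 to Psmb5 overlapped, at 14.3 ± 1.52 against 11.0 ± 2.06. These ratios do not depend on a library's total, they were not tested, and the T cell markers (4 of 4 measured, 140 to 169 FPKM summed in Norad+/+, 204 to 250 in Norad-/-), B cell markers (1129 to 1323 and 1312 to 1480) and the plasma cell markers above were higher on average along with them, the B cell sums with overlap. Their part was not tested.

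**Figure D4:**
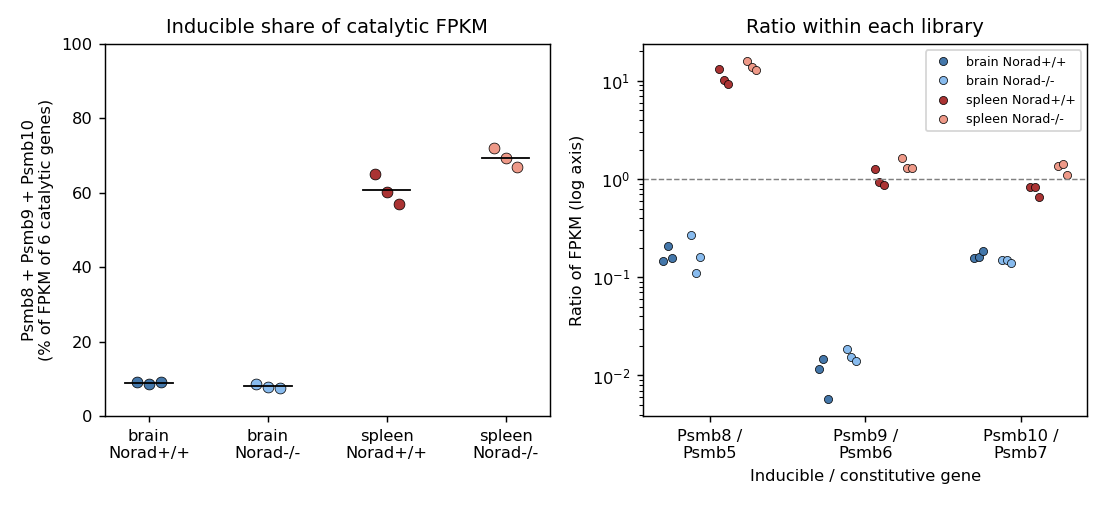
Left, Psmb8, Psmb9 and Psmb10 as a percentage of the FPKM of the 6 catalytic genes in each library, with a bar at the group mean. Right, the ratio of each inducible gene to its constitutive counterpart in each library on a log axis, where the Norad-/- spleens lie above the Norad+/+ spleens for Psmb9 and Psmb10 and overlap them for Psmb8.

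On the class I processing list 8 of 8 genes were estimated higher in Norad-/- spleen, with a median of 0.25, but 0 passed. Of all genes tested, 5728 of 12397 were estimated higher. The list was chosen with earlier results of these data known, so its sign is no separate support for that of the inducible subunits. The 4 with the smallest p were Tap1 at 0.28 ± 0.12 (adjusted p = 0.242), Irf1 at 0.34 ± 0.15 (adjusted p = 0.246), Nlrc5 at 0.37 ± 0.16 (adjusted p = 0.256) and Tap2 at 0.27 ± 0.14 (adjusted p = 0.302). Of 12 proteasome partners in the tables, a list of assembly factors, deubiquitinases and transcription factors that act on the proteasome, 0 passed in spleen and the median was -0.07. The lowest p was that of Txnl1, a cap-associated thioredoxin (-0.56 ± 0.18, adjusted p = 0.187), and Usp14 and Uchl5, the deubiquitinases of the cap, were at -0.50 ± 0.20 (adjusted p = 0.233) and -0.46 ± 0.21 (adjusted p = 0.272). Of 8 ubiquitin genes and shuttle factors 0 passed, with a median of -0.10.

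In brain 47 members were tested, Psmb9 also falling below the filter, and limma over 13051 genes called 0 higher and 0 lower, against 0% and 0.0153% of all genes. At an unadjusted p under 0.05, 3 members were higher (Psma1, Psmb2 and Psmb6) and 0 lower, beside 487 and 377 of the 13051 genes. Groups did not overlap for 4 members higher in Norad-/- (8.51%, against 10.6% of all genes) and 0 lower (against 6.56%). The median difference was 0.01 for the members, 0.03 for the 31 constitutive subunits and 0.02 for all genes. In brain, then, the members' median lay at that of all genes.

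The 4 without overlap were 1 alpha and 3 beta subunits. Psma1 was at 34.6, 45.1 and 33.7 FPKM in Norad+/+ and 45.4, 49.9 and 55.5 in Norad-/- (0.42 ± 0.15, limma adjusted p = 0.710). Psmb2 (beta4) was at 56.8, 61.9 and 41.8 against 63.8, 76.9 and 73.9 (0.43 ± 0.17, adjusted p = 0.718), or 0.27 without replicate 3 of Norad+/+, and Psmb6 at 36.9, 53.4 and 45.7 against 53.4, 58.0 and 68.1 (0.41 ± 0.17, adjusted p = 0.718). Psmb3 was at 3.87, 4.74 and 4.90 against 4.98, 5.26 and 6.33 (0.29 ± 0.14, adjusted p = 0.718). Without replicate 3 of Norad-/- it was at 0.19, and without replicate 1 of Norad+/+ it was at 0.18 and Psmb6 at 0.27. In all 4 the gap between the groups was small beside the spread within them.

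Replicate 3 of Norad+/+ brain decided many of the other brain values. It held Psma4 (alpha3) at 120 FPKM where the other Norad+/+ brains had 33.4 and 43.1, Psmd7 at 126 beside 42.0 and 48.3, Psmc1 at 94.0 beside 43.0 and 44.8, and Psmg1 (PAC1) at 22.2 beside 8.05 and 8.92. For Psmb2 and Psma1 it was instead the lowest. Without it, 17 members were higher without overlap (36.2%, against 20.7% of all genes) and 1 lower (2.13%, against 13.6%), and the median of the 31 subunits was 0.17 with 3 below 0, against 0.03 for all genes. The share of all genes below 0 in that fit is not given. No member passed without that replicate either. Without replicate 3 of Norad-/- brain, the library with pituitary markers, 4 were higher (8.51%, against 14.3% of all genes) and 5 lower (10.6%, against 12.7%).

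The inducible and PA28 genes had no separation in brain apart from Psmb9. Psmb9 was at 0.424, 0.781 and 0.261 FPKM in Norad+/+ and 0.999, 0.893 and 0.960 in Norad-/-, and when every gene above 0 was fitted its difference was 0.93 ± 0.32 (limma adjusted p = 0.730). Psmb8 was at 0.945, 1.25 and 1.30 against 1.56, 0.820 and 1.37 (0.06 ± 0.26, adjusted p = 0.946), and Psmb10 at 8.04 to 9.07 against 8.55 to 9.75 (0.07 ± 0.10, adjusted p = 0.849). Psme1 differed by -0.07 ± 0.28 (adjusted p = 0.948), or 0.26 without replicate 3 of Norad+/+, and Psme2 by -0.02 ± 0.22 (adjusted p = 0.982), or 0.01 after rescaling to a common total. The constitutive Psmb7 was at 46.7 to 57.0 FPKM against 56.6 to 69.2 (0.26 ± 0.13, adjusted p = 0.718) and Psmb5 at 0.07 ± 0.18 (adjusted p = 0.918). The inducible genes made up 8.76%, 7.78% and 7.65% of the catalytic FPKM in Norad-/- brain, which overlapped the Norad+/+ range of 8.71% to 9.27%. The ratio of Psmb10 to Psmb7 was lower in Norad-/- brain (0.141 to 0.151) than in Norad+/+ brain (0.159 to 0.187), the opposite order to spleen, and was not tested. Psmb9 to Psmb6 (0.0141 to 0.0187 against 0.00571 to 0.0146) and Psmb8 to Psmb5 (0.109 to 0.268 against 0.145 to 0.209) overlapped. Microglial markers summed to 39.7 to 47.6 FPKM in Norad+/+ and 47.1 to 54.0 in Norad-/- brain.

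**Figure D5:**
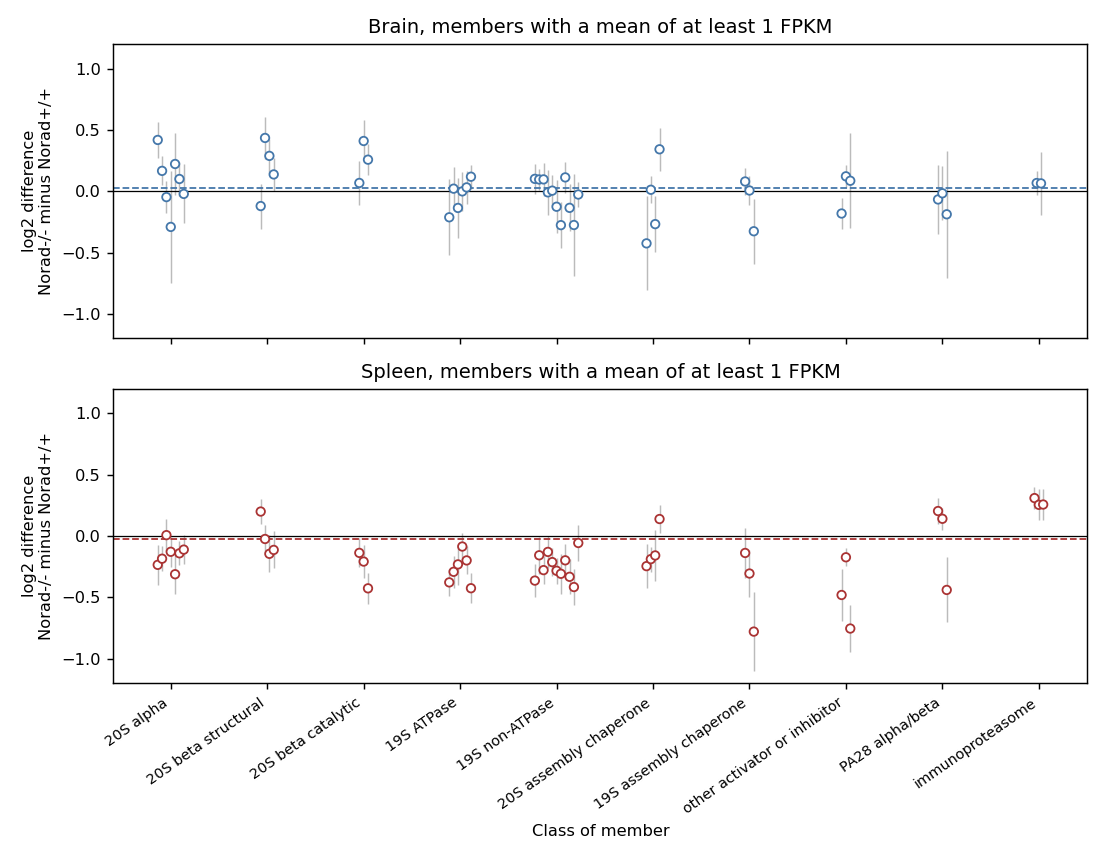
Difference of log2(FPKM + 0.1) between Norad-/- and Norad+/+ in brain (top) and spleen (bottom) for the proteasome genes tested, by class, with standard errors as bars; open points did not pass, and no point passed. The dashed line is the median of all genes (0.02 and -0.02), below which 6 of 6 ATPases and 11 of 11 other cap subunits lie in spleen while the 3 immunoproteasome genes lie above it.

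In brain, none of the related lists had a gene that passed. The medians were 0.02 for 11 proteasome partners tested, 0.11 for the 8 ubiquitin genes and 0.04 for 6 class I genes. Ubqln2, a ubiquitin shuttle, had the smallest p, at 54.7 FPKM in Norad+/+ and 109 in Norad-/- (0.97 ± 0.18, limma adjusted p = 0.40). Ddi2, the protease that activates the proteasome transcription factor Nfe2l1, was at 0.53 ± 0.16 (adjusted p = 0.690), and Nfe2l1 itself at 0.02 ± 0.09 (adjusted p = 0.950).

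Whether the genotype differences themselves differed between the tissues was tested as an interaction over all 12 libraries and 14967 genes. Of 48 members, 0 were more positive in spleen and 0 more negative, as were 0% and 0% of all genes by limma. At an unadjusted p under 0.05, 7 members were more negative in spleen and 0 more positive, among 1594 and 607 genes in all. Those were Psma1, Psma2, Psmb6, Psmb7, Psmc6, Psmd1 and Psme4. Psmb7 had the smallest p, at -0.68 ± 0.19 in spleen relative to brain (limma adjusted p = 0.213), and was estimated higher in Norad-/- brain and lower in Norad-/- spleen. Psmb6 was at -0.62 ± 0.23 (adjusted p = 0.266) and Psmb5 at -0.21 ± 0.23 (adjusted p = 0.706). The inducible Psmb10 was at 0.24 ± 0.13 (adjusted p = 0.418), Psmb8 at 0.19 ± 0.30 (adjusted p = 0.795) and Psmb9 at -0.68 ± 0.36 (adjusted p = 0.416), or -0.37 without replicate 3 of Norad+/+ brain. Psmb9 was below 1 FPKM in every brain library, so it entered this fit only through spleen. Psme1 and Psme2 were at 0.27 ± 0.32 (adjusted p = 0.725) and 0.16 ± 0.25 (adjusted p = 0.799).

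The members with a PUMILIO word had no common direction. In spleen they were at 0.01 ± 0.13 (Psma3, with 2 words), -0.31 ± 0.16 (Psma5), -0.31 ± 0.19 (Psmd5, with 3 words), -0.76 ± 0.19 (Psmf1) and 0.14 ± 0.11 (Psmg4). In brain the same genes were at -0.05 ± 0.13, 0.22 ± 0.25, 0.01 ± 0.12, 0.08 ± 0.39 and 0.34 ± 0.17. Psmd5, which had the most words, was at 12.8, 15.5 and 15.5 FPKM in Norad+/+ brain and 16.0, 14.0 and 13.9 in Norad-/- brain, and at 15.3, 20.4 and 25.5 against 15.2, 15.5 and 17.8 in spleen. Both pairs of groups overlapped. Psmf1 was the only one of the 5 without overlap, and in brain its Norad+/+ values spread from 4.44 to 14.0 FPKM around the Norad-/- values of 7.69 to 8.52. Psmb11, with 1 word, lay below the mean required for the main fits. When every gene above 0 was fitted it was at -0.07 ± 0.09 in spleen (limma adjusted p = 0.708) and -0.12 ± 0.15 in brain (limma adjusted p = 0.830). Its spleen groups did not overlap, but no spleen was above 0.00734 FPKM.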

How the data were processed

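The authors removed low-quality reads (NGS QC Toolkit), used TopHat2 2.0.12 for alignment to GRCm38 and kept uniquely mapped reads; per the submitters' processing notes the deposited FPKM values were made with StringTie 1.2.2. FeatureCounts 1.4.6 and edgeR 3.8.6 served the authors' own comparison, which was not used. No value column was left unmapped to a sample, and 2883 genes are at 0 in all libraries. Reads per library were estimated from the smallest FPKM steps, of which 44.0% to 48.8% were whole within 2%, so no count test was run. Here log2(FPKM + 0.1), which understates differences of low genes, was fitted by limma 3.58.1 (R 4.3.3), allowing a variance trend, over genes whose mean reached 1 FPKM across the libraries fitted, and p was adjusted by Benjamini-Hochberg over all of them. Each library is 1 tissue of 1 mouse. Genes and lists were chosen with earlier results of these data known. All members are accounted for by role. Full statistics are given for the catalytic pairs, Psme1 and Psme2, for members that passed and, without overlap, the 5 smallest p per direction (between tissues, the 5 largest differences), and for up to 4 genes per related list. Sequences come from GENCODE M21 and RefSeq. The fits were tested on simulated data. Alternatives were other pseudocounts, filters, scalings, variance models, a replicate block and leaving out each library; core medians and overlap counts were added after seeing the data. Python 3.11.15, pandas 2.3.3, numpy 2.4.6 and matplotlib 3.10.9 prepared tables and figures.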

Additional observations from a re-analysis of the deposited data

Results flagged for a closer look

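Psma8, the alpha subunit of the testis proteasome, was the only member whose groups were separate in both tissues with opposite signs. In brain the Norad+/+ libraries had 0.185, 0.208 and 0.159 FPKM and the Norad-/- libraries 0.217, 0.267 and 0.310. In spleen the Norad+/+ libraries had 1.05, 1.10 and 1.26 FPKM and the Norad-/- libraries 0.757, 0.633 and 0.667. Its mean lay below the level required for the tests. When every gene above 0 was fitted over all 12 libraries, the spleen difference was -1.01 ± 0.20 relative to that in brain (log2 ± SE, limma adjusted p = 0.158), so the difference between tissues did not pass. Levels this low rest on few reads.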

How the results depend on the processing

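No member passed in brain, in spleen or in the interaction under any alternative run, and the replicate block left those counts at 0 and gave 27 members higher in spleen and 2 higher in brain. Same-numbered libraries of the genotypes had deviations correlated at 0.06, 0.07 and 0.11 in brain, each above the differently numbered ones (-0.09 to 0.04). In spleen the same-numbered ones were at 0.34, -0.15 and 0.29 and the differently numbered ones at -0.48 to 0.36. The labels give no pairing, and the main fits did not use the numbers. Between tissues, 5 members were higher in brain after rescaling to a common total and 12 in the Norad-/- libraries, where the median of the members was 0.44 and 0.40. The shares of all genes at these settings and with the replicate block are not given, so the tissue counts show only how far they move. Counts without overlap, added after seeing the data, ranged without replicate 3 of either genotype from 4 to 17 higher and 1 to 5 lower in brain (all genes 14.3% to 20.7% and 12.7% to 13.6%) and from 3 to 6 higher and 13 to 16 lower in spleen (17.2% to 20.6% and 16.8% to 23.4%). Rescaling turned the sign of Psme2 in brain (0.011) and of Psmb7 between tissues (-0.087), and the Norad-/- libraries gave -0.015 for Psmb6 and -0.58 for Psmb7 (limma adjusted p = 0.00115). With each library left out in turn, brain differences whose sign turned ranged from -0.049 to 0.21 for Psmb5, -0.11 to 0.32 for Psmb8, -0.23 to 0.26 for Psme1 and -0.26 to 0.16 for Psme2. Between tissues Psmb7 ranged from -0.022 to 0.18, and interaction values from -0.066 to 0.36 for Psmb8, -0.055 to 0.44 for Psme1 and -0.016 to 0.40 for Psme2. The cause was not tested. With 3 libraries a group, differences of the size seen in spleen lay near the spread between libraries. Genes with a mean below 1 FPKM were left out of the main fits.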
